A study of Mus musculus with 8 samples.

Results

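The genes *Ccdc80*, *Cib3*, *Slco3a1*, *Ripor3*, *Fam161a*, *Prss23* and *Prcp* are described here, 7 of the 12148 genes measured in the dental pulp of mouse molars. They were selected on the difference between mutant and control pulp in these same libraries, as genes that fell clearly in mutants, so their levels are given as a description, without a test. The tissue was dental pulp (DP) from mandibular first molars (M1s) of C57BL/6J mice at P7 (postnatal day 7). Pulp was dissected out of the hard tissue and freed of enamel organ, and left and right molars were pooled. Osterix-Cre mice, which carry the Cre recombinase fused to GFP under the Osterix promoter, were the controls (n = 4 libraries). Tgfbr2cko mice carry the same Osterix-Cre and floxed *Tgfbr2* alleles (Osterix-Cre:*Tgfbr2* f/f, n = 4 libraries). Both genotypes thus carry Cre, which acts in the mesenchyme that gives odontoblasts and pulp cells, and cells of other lineages in the pulp keep the receptor. Each library is called by its genotype and its label number (Osterix-Cre 49 to 52, Tgfbr2cko 53 to 56), and values for several libraries are always given in that order. The sample titles carry a further number that no source explains and that repeats within a genotype, 4, 4, 2 and 5 in Osterix-Cre and 3, 2, 2 and 3 in Tgfbr2cko, so libraries with the same number may not be independent and an SD with n = 4 is the spread between libraries.

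*Tgfbr2* encodes the type II receptor of transforming growth factor β (TGFβ), which binds the ligand, recruits a type I receptor and leads to phosphorylation of SMAD proteins that enter the nucleus and act on gene promoters. In the tooth this signal acts in the neural crest-derived mesenchyme, where odontoblasts lay down dentin and pulp fibroblasts, vessels, nerves and macrophages fill the chamber behind them. The 7 genes belong to no single pathway. *Ccdc80* encodes a secreted protein of the extracellular matrix, *Prss23* a secreted serine protease, *Prcp* a lysosomal and secreted carboxypeptidase, *Slco3a1* an organic anion transporter of the cell membrane, *Cib3* a calcium-binding partner of membrane proteins, *Ripor3* a relative of proteins that act in cell polarity, and *Fam161a* a microtubule-binding protein of centrioles and the base of cilia.

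SMAD proteins bind the short DNA element CAGAC, so the bases before the start of the genes are shown for 3 members that differ in how many copies they hold. The windows are the 250 bases upstream of the RefSeq start (GRCm38.p6), read 5′ to 3′ on the strand of the gene, and capitals mark CAGAC or its reverse complement GTCTG. The *Ripor3* window lies at chr2:168010619-168010868 on the minus strand, and 166 of its bases fall in annotated exons of the antisense gene *Gm14236*. The *Fam161a* window lies at chr11:23008097-23008346 on the plus strand, after the first annotated GENCODE start of the gene, which is 816 bases before the RefSeq start, and holds no annotated exon. The *Prss23* window lies at chr7:89527188-89527437 on the minus strand.
Ripor3: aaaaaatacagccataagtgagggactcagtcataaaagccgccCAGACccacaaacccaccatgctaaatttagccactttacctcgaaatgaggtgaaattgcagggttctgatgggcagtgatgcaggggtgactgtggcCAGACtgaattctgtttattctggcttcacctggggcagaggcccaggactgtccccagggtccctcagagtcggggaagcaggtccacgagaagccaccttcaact
Fam161a: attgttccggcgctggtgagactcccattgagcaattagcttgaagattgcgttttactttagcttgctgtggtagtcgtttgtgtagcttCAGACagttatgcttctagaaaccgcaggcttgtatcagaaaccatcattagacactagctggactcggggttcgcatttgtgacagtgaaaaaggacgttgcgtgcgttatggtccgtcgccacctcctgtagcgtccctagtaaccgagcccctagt
Prss23: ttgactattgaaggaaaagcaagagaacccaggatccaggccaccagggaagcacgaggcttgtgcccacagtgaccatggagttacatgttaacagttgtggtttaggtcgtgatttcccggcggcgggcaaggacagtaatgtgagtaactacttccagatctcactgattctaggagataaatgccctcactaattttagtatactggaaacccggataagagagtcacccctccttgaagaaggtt

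The *Ripor3* window held 2 copies, the *Fam161a* window 1 and the *Prss23* window none. RefSeq gave 7 start entries for *Prss23* and 2 for *Fam161a*, and for each gene only the entry nearest the GENCODE start was read. The window of *Prcp* held 1 copy and lay wholly within annotated *Prcp* exons. The window of *Cib3* held 3 copies and no base in an annotated exon, but its letters may include an exon that the annotation lacks, so they may not all lie before the start of the gene. Windows were read for 5 of the 7 members, not for *Ccdc80* and *Slco3a1*. Of 9556 windows of 250 bases before mouse genes, 40.2% held at least 1 copy and 10.6% held 2 or more, and the members' copies are a description of these letters only. The AP-1 element TGANTCA, which is its own reverse complement and does not contain CAGAC, was in 3.81% of all windows and in 0 of the 5 members' windows.

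Before the 7 genes, the genotype was checked on the targeted gene. *Tgfbr2* (ENSMUSG00000032440.13, chr9:116084293-116175360 of GRCm38, minus strand) measured 7.16, 7.62, 7.64 and 7.52 log2 CPM (reads scaled to the size of the library) in the Osterix-Cre libraries and 7.02, 7.00, 7.16 and 7.61 in the Tgfbr2cko libraries. The log2 fold change was -0.29 (SE 0.17, limma adjusted p = 0.79), and Tgfbr2cko 55 reached the lowest control while the library labelled Tgfbr2cko 56 sat well within the control range. Reads of the whole gene are counted, including exons outside the floxed segment and cells that Cre does not reach, so this level is a weak check of the labels. The library totals ran from 8682872 to 13539670 reads.

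Across the 12148 genes, 701 were altered between the genotypes (5.77%), where altered means an unadjusted limma p under 0.05 and at least a 1.5-fold difference, 443 lower and 258 higher in Tgfbr2cko. A count of 85 genes (0.700%) was lower with a Benjamini-Hochberg adjusted p under 0.05, and in 381 genes (3.14%) every mutant library lay below every control library. All 7 members were in each of these 3 groups, which their choice brought about. Their ranks among all genes by size of fall ran from 1 for *Cib3* to 68 for *Slco3a1*. An unadjusted limma p under 0.05, whatever the fold, was met by 1018 of the 12148 genes, so a short list can lack such a gene.

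*Cib3* (ENSMUSG00000074240.4, chr8:72204335-72212837, minus strand) had the largest fall of any gene in the table. It encodes calcium and integrin binding family member 3, a small EF-hand protein which, with its relative CIB2, is known as a partner of the TMC mechanotransduction channels of inner ear hair cells. Its level was 4.93, 4.21, 4.17 and 4.95 log2 CPM in the Osterix-Cre libraries and 1.21, 1.40, 1.90 and 1.51 in the Tgfbr2cko libraries. The groups did not overlap, and the lowest control lay 2.27 log2 units above the highest mutant, the widest gap of the 7 genes. The means were 4.57 ± 0.43 and 1.51 ± 0.29 (SD, n = 4 each), a log2 fold change of -3.06 (SE 0.26), which leaves 12.0% of the control level. The mutant libraries held 20 to 38 reads of *Cib3* against 171 to 316 in controls. The lowest count, 20 reads, has an exact Poisson 95% interval of 12.2 to 30.9 reads, which covers counting error only.

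*Ccdc80* (ENSMUSG00000022665.14, chr16:45093402-45128077, plus strand) encodes coiled-coil domain containing 80, a matrix-bound secreted protein known for its part in cell adhesion and in adipocyte biology. The Osterix-Cre libraries measured 7.10, 6.84, 7.38 and 7.69 log2 CPM and the Tgfbr2cko libraries 5.24, 5.08, 5.07 and 5.02. Control levels were spread over most of a log2 unit, whereas the mutants lay close together and all below the controls. The means were 7.25 ± 0.37 and 5.10 ± 0.10 (SD, n = 4 each), a log2 fold change of -2.15 (SE 0.18). In mutants 292 to 438 reads were counted and in controls 1103 to 2113.

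*Prss23* (ENSMUSG00000039405.7, chr7:89507783-89527187, minus strand) encodes a secreted serine protease whose substrates are little known. It measured 7.30, 7.92, 7.53 and 7.10 log2 CPM in controls and 5.92, 4.96, 4.88 and 5.52 in mutants. Mutant libraries 53 and 56 were the higher pair and 54 and 55 the lower, and all 4 lay below every control. That split follows the repeated title numbers (3 and 2) of the mutants. Controls 49 and 50, which also share a title number, did not lie together, at 7.30 and 7.92. With libraries of the same title number averaged, the log2 fold change was -2.09. The means were 7.46 ± 0.35 and 5.32 ± 0.49 (SD, n = 4 each), a log2 fold change of -2.14 (SE 0.24). Exons of the antisense gene *Prss23os* overlap 864 bases, or 22.9%, of the *Prss23* exons, and the strand setting of the counting is not given in the sources used here, so reads of the pair may be mixed.

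*Prcp* (ENSMUSG00000061119.7, chr7:92874470-92934583, plus strand) encodes prolylcarboxypeptidase, which removes a C-terminal amino acid that follows a proline and is known to act on angiotensin II and on a melanocortin peptide. Its levels were 6.88, 7.03, 7.02 and 7.33 log2 CPM in controls and 5.01, 5.08, 5.17 and 5.92 in mutants. The library labelled Tgfbr2cko 56 was the highest mutant, and the distance from there to the lowest control was 0.96 log2 units, the narrowest of the 7 genes. The means were 7.06 ± 0.19 and 5.29 ± 0.42 (SD, n = 4 each), a log2 fold change of -1.77 (SE 0.20).

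*Slco3a1* (ENSMUSG00000025790.14, chr7:74275419-74554780, minus strand) encodes the transporter OATP3A1, known to carry prostaglandins, thyroid hormone and bile acids across the cell membrane. The controls measured 7.08, 6.94, 7.08 and 7.16 log2 CPM and the mutants 5.55, 5.19, 5.81 and 5.59. The controls were nearly level with each other and did not overlap with the mutants. The means were 7.07 ± 0.09 and 5.53 ± 0.26 (SD, n = 4 each), and the log2 fold change of -1.53 (SE 0.15) was the smallest of the 7 genes and left 34.6% of the control level.

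*Ripor3* (ENSMUSG00000074577.9, chr2:167980164-168010618, minus strand) is the third gene of the RIPOR family, whose first 2 members act in cell polarity and migration. Its levels were 6.49, 6.28, 6.75 and 6.62 log2 CPM in controls and 4.19, 4.84, 4.73 and 3.86 in mutants. Here the library labelled Tgfbr2cko 56 was the lowest of all, and again no mutant reached a control. Mutants 54 and 55 were the higher pair and 53 and 56 the lower, the reverse of the order in *Prss23*. The means were 6.54 ± 0.20 and 4.41 ± 0.46 (SD, n = 4 each), a log2 fold change of -2.13 (SE 0.22). Antisense *Gm14236* exons overlap 2.12% of its exons.

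*Fam161a* (ENSMUSG00000049811.16, chr11:23007531-23030788, plus strand) encodes a protein of the inner scaffold of centrioles and of the connecting cilium of photoreceptors, and human mutations in it cause retinitis pigmentosa. The controls measured 5.74, 5.18, 5.61 and 5.69 log2 CPM and the mutants 4.0, 3.46, 3.56 and 3.14. Mutant library 53 was the highest mutant and still 1.18 log2 units below the lowest control. The means were 5.56 ± 0.26 and 3.54 ± 0.36 (SD, n = 4 each), a log2 fold change of -2.01 (SE 0.21).

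**Figure D1:**
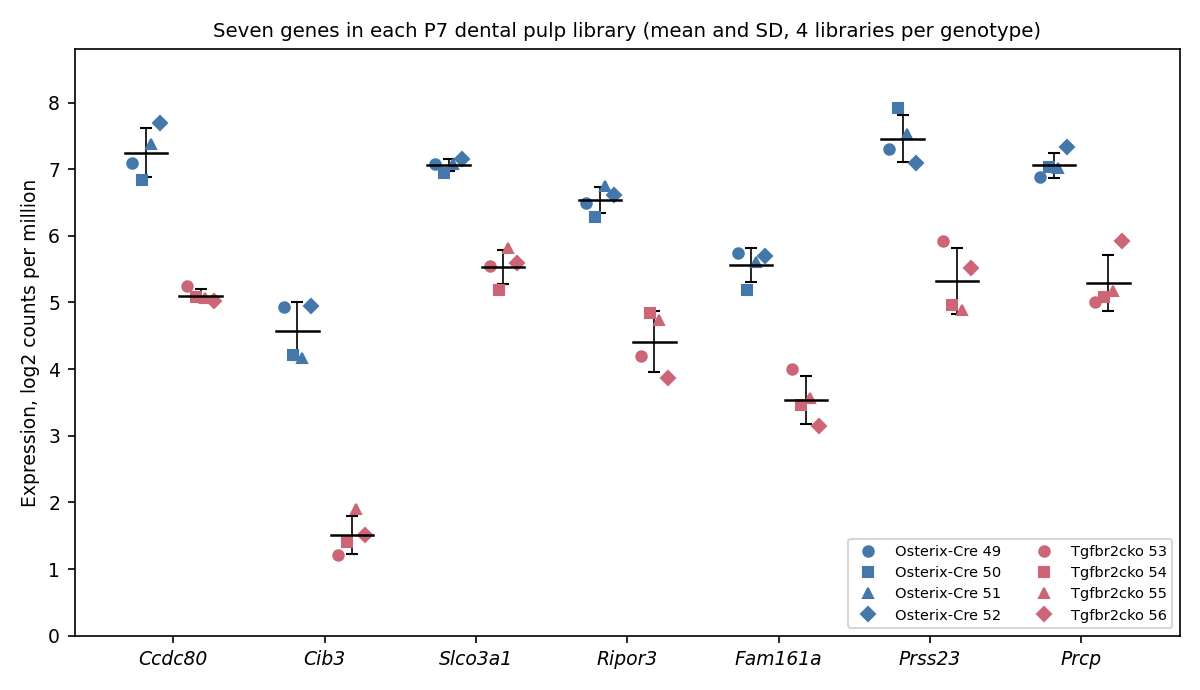
Expression of the 7 genes in log2 CPM (y axis) in each of the 8 libraries, with 1 marker per library, blue for Osterix-Cre and red for Tgfbr2cko, and black lines for the mean and SD of the 4 libraries. In each gene the 4 mutant points lie below the 4 control points, with the widest gap, 2.27, in *Cib3* and the narrowest, 0.96, in *Prcp*.

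Leaving out each library in turn moved the log2 fold change of *Cib3* between -3.19 and -2.93 and that of *Prcp* between -1.98 and -1.68. The ranges were -2.34 to -1.99 for *Prss23*, -2.29 to -2.0 for *Ccdc80*, -2.28 to -1.95 for *Ripor3*, -2.17 to -1.88 for *Fam161a* and -1.62 to -1.42 for *Slco3a1*. Fewer cells of a type and less RNA per cell cannot be told apart in these whole-pulp libraries.

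Scaled for length, the genes can be compared with each other as reads per kilobase of exon, scaled to the size of the library (RPKM). In control pulp *Prss23* was highest at 47.9 ± 12.1 RPKM and *Ccdc80* followed at 36.3 ± 9.31 (SD, n = 4). *Prcp* at 24.5 ± 3.37 and *Ripor3* at 22.0 ± 3.02 formed the middle. *Slco3a1* at 15.8 ± 1.0, *Cib3* at 12.1 ± 3.58 and *Fam161a* at 10.8 ± 1.76 came last. In this order only the step from *Ripor3* to *Slco3a1* was larger than the sum of the SDs of the 2 neighbours.

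In mutant pulp *Prss23* at 11.1 ± 3.84 and *Ccdc80* at 8.01 ± 0.543 RPKM were still the highest, and *Prcp* was at 7.38 ± 2.42. *Slco3a1* at 5.53 ± 0.96 and *Ripor3* at 5.18 ± 1.58 had changed places in the order. *Cib3* was last at 1.41 ± 0.303, below *Fam161a* at 2.70 ± 0.686. Only the steps from *Ripor3* to *Fam161a* and from *Fam161a* to *Cib3* were larger than the sum of the neighbours' SDs.

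**Figure D2:**
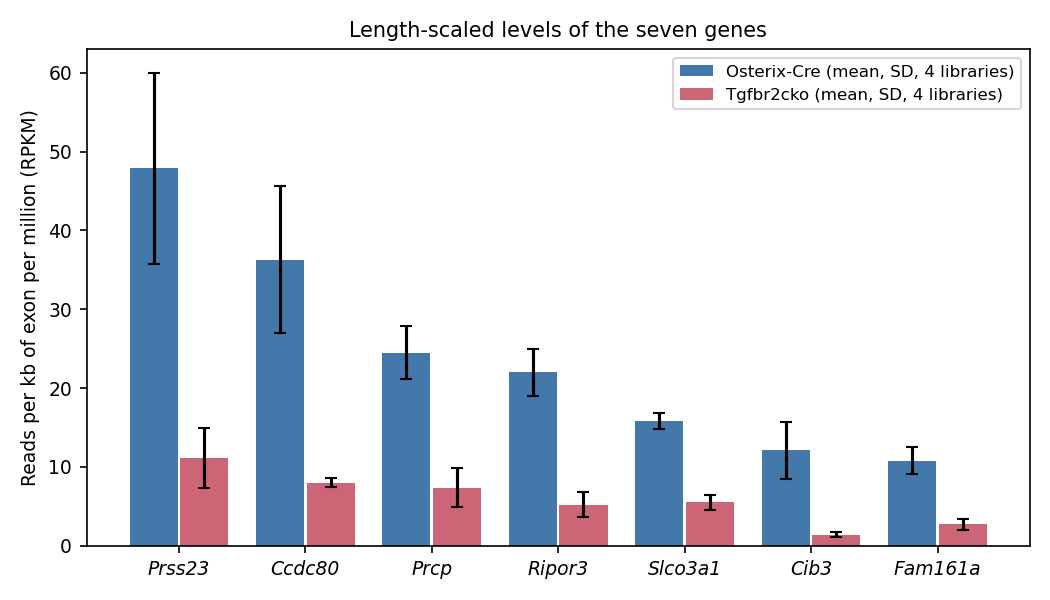
Mean level in RPKM (y axis, from 0) of each gene in Osterix-Cre (blue) and Tgfbr2cko (red) pulp, ordered by control level, with bars for the SD of 4 libraries. *Prss23* falls from 47.9 to 11.1 and *Cib3* from 12.1 to 1.41.

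Within a genotype the 7 genes were compared by their deviations from library to library. After the mean of each genotype was taken away, Pearson's r between 2 members over the 8 libraries was positive in 12 of 21 pairs and negative in 9, from -0.74 for *Cib3* with *Prss23* to 0.58 for *Ccdc80* with *Fam161a*. Of the 21 pairs 2 were above 0.5 and 4 below -0.5. The points share library depth and only 4 libraries per genotype, so these are descriptions without a p. Such few points cannot show whether the genes vary together. In the library labelled Tgfbr2cko 56, *Prcp* was 0.62 log2 units above the mutant mean and *Ripor3* was at -0.55, so that library stood on opposite sides in the 2 genes. In library Tgfbr2cko 53, *Prss23* was 0.60 and *Fam161a* 0.46 above the mutant mean, and *Cib3* was at -0.30.

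**Figure D3:**
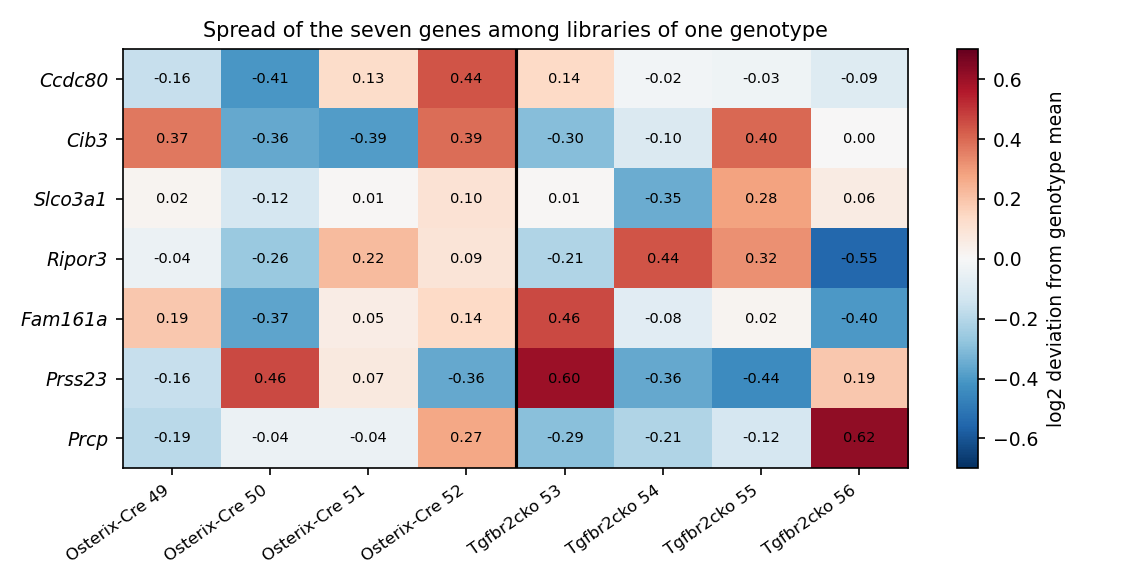
Deviation of each gene (rows) from the mean of its genotype in each library (columns), in log2 units, with red above and blue below the mean and a black line between the genotypes. The rows differ in which library is high, with *Prcp* highest at 0.62 in Tgfbr2cko 56 and *Prss23* highest at 0.60 in Tgfbr2cko 53.

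The genes whose deviations within genotype were most like those of a member were different for each. For *Cib3* they were *Wnt11*, *Birc6* and *Bend5* (r from 0.916 to 0.94), and for *Ccdc80* *Llph-ps2*, *Smim10l2a* and *Usp32* (0.959 to 0.973). *Slco3a1* was most like *Rn7s1*, *Rn7s2* and *Vwa7* (0.883 to 0.929), and *Ripor3* most like *D1Ertd622e*, *Bmp8a* and *Trim45* (0.977 to 0.981). *Fam161a* went with *R3hcc1l*, *Gm11423* and *Rdh13* (0.96 to 0.987), *Prss23* with *Shox2*, *Kcnip4* and *Sgk1* (0.936 to 0.961), and *Prcp* with *Abhd13*, *Pde4b* and *St3gal4* (0.979 to 0.994). *Rn7s1* and *Rn7s2* are near-identical copies whose reads may be split between them. These are the highest of 12148 values of r over 8 libraries. None of these 21 genes differed between genotypes at a limma adjusted p under 0.05, and 1 of them, *Pde4b*, was altered (log2 fold change 0.76, adjusted p = 0.381).

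The families and partners of the 7 genes, which the choice did not use, were mostly not altered. Of 110 listed relatives 66 were measured, 6 of these were altered (9.09%, against 5.77% of all genes), and the median log2 fold change was 0.02, against -0.00535 for all genes. Of the altered relatives 4 were higher and 2 lower in mutants.

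The 2 matrix proteins that share a domain with *Ccdc80*, *Srpx* and *Srpx2*, were both higher in mutants. *Srpx2* (ENSMUSG00000031253.15, chrX:133908426-133932446) measured 4.55, 4.22, 4.29 and 5.06 log2 CPM in controls and 4.85, 5.45, 5.49 and 5.12 in mutants, a log2 fold change of 0.70 (SE 0.22, limma adjusted p = 0.222). Its groups overlapped, since mutant 53 lay below control 52. *Srpx* (ENSMUSG00000090084.7, chrX:10037977-10117709) had a log2 fold change of 0.88 (SE 0.30, limma adjusted p = 0.287), which was 0.55 and under 1.5-fold without Tgfbr2cko 56.

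Of 13 genes of the CIB family and the TMC channels and their partners, 4 were measured and 0 were altered, and 0 had an unadjusted limma p under 0.05. *Cib1*, a widely expressed relative, had a log2 fold change of -0.24 (SE 0.15, limma adjusted p = 0.808), and *Cib2* one of 0.12 (SE 0.22, adjusted p = 0.998). *Tmc1* and *Tmc2*, the channels of hair cells, were not among the 12148 genes. Among 14 transporters of the *Slco3a1* family 3 were measured. *Slco2a1*, a prostaglandin transporter, had a log2 fold change of -0.52 (SE 0.27, limma adjusted p = 0.684), and *Slco2b1* one of -0.02 (SE 0.22, adjusted p = 0.998). *Slco4a1* (ENSMUSG00000038963.15, chr2:180456245-180474867), a thyroid hormone transporter, was called higher with a log2 fold change of 1.46 (SE 0.63, limma adjusted p = 0.534). Only the library labelled Tgfbr2cko 56, at 4.99 log2 CPM, stood apart from the range of 0.69 to 1.89 in the other 7 libraries, and without it the difference was 0.64 and the gene was not altered. The call was lost in 9 of its 15 alternatives, among them quantile or median scaling, voom weights, no intensity trend and leaving out Osterix-Cre 50, 51 or 52.

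*Ripor1*, a relative of *Ripor3*, had a log2 fold change of -0.13 (SE 0.17, limma adjusted p = 0.98) and *Ripor2* one of -0.40 (SE 0.24, adjusted p = 0.802). *Rnd1* (ENSMUSG00000054855.13, chr15:98663421-98677461), which encodes a GTP-binding protein that lacks GTPase activity, was 1.03 higher (SE 0.38, limma adjusted p = 0.347). Without Tgfbr2cko 54 or 55 it was no longer altered (log2 fold changes of 0.79 and 0.91). Of 18 genes of centrioles and the base of cilia, 17 were measured and 0 were altered, with 0 at an unadjusted limma p under 0.05, and the median log2 fold change was -0.02. *Fam161b*, the closest relative of *Fam161a*, measured 2.02 ± 0.44 log2 CPM in controls and 1.99 ± 0.34 in mutants (SD, n = 4 each; limma adjusted p = 0.998).

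Among 17 PRSS and HTRA proteases 7 were measured and 1, *Htra3*, fell with *Prss23*. *Htra3* (ENSMUSG00000029096.15, chr5:35652023-35679782), a secreted serine protease, measured 7.00, 6.91, 7.12 and 7.22 log2 CPM in controls and 5.63, 5.84, 6.13 and 5.59 in mutants. Every mutant lay below every control, and the log2 fold change was -1.27 (SE 0.15, limma adjusted p = 0.00137). It was the only one of the 66 relatives with an adjusted p under 0.05. *Prss35*, the nearest relative of *Prss23*, had a log2 fold change of -0.19 (SE 0.16, limma adjusted p = 0.929), and *Htra1* one of 0.15 (SE 0.27, adjusted p = 0.998).

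For *Prcp*, 14 of 27 prolyl peptidases and genes of the renin-angiotensin and kinin systems were measured and 1 was altered. *Fap* (ENSMUSG00000000392.17, chr2:62500943-62574075), a cell surface prolyl peptidase of activated fibroblasts, was at 6.05, 6.05, 5.88 and 5.65 log2 CPM in controls and 5.30, 5.05, 5.51 and 4.54 in mutants. All mutants lay below all controls, with a log2 fold change of -0.81 (SE 0.20, limma adjusted p = 0.0974). *Dpp7*, a lysosomal relative, had a log2 fold change of -0.13 (SE 0.17, limma adjusted p = 0.986), and *Prep*, a cytosolic one, 0.19 (SE 0.16, adjusted p = 0.911). *Ren1*, *Agtr1a* and *Bdkrb2*, which encode renin and receptors of its pathway and of kinins, were not among the genes measured.

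**Figure D4:**
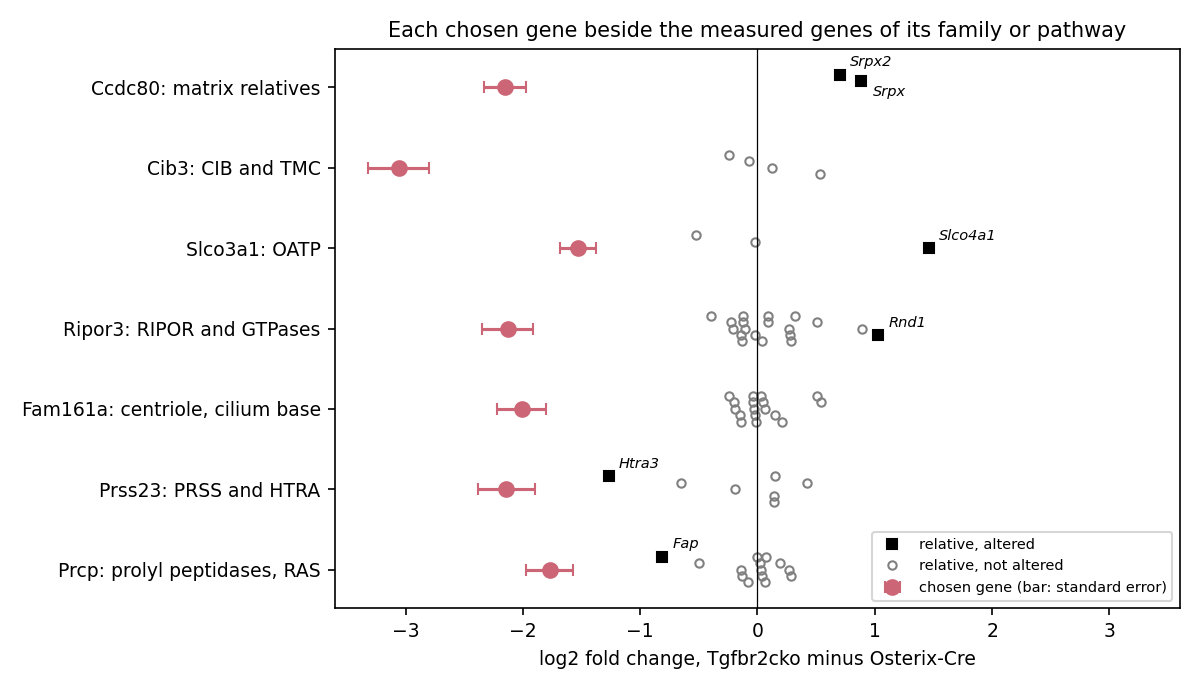
The log2 fold change (x axis, Tgfbr2cko minus Osterix-Cre) of each of the 7 genes (red, with its standard error) and of the measured relatives on the same row, with black squares for altered and open circles for the other relatives. *Htra3* at -1.27 is the relative nearest to the members, and *Srpx*, *Srpx2*, *Slco4a1* and *Rnd1* lie to the right of 0.

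Genes known to answer TGFβ were also looked up, since the deleted receptor carries that signal. Of 16 listed, 13 were measured and 1 was altered (7.69%, against 5.77% of all genes), and their median log2 fold change was -0.01. *Skil* (ENSMUSG00000027660.16, chr3:31095058-31122577), a SMAD co-repressor induced by the pathway, measured 5.88, 5.62, 5.79 and 6.11 log2 CPM in controls and 4.74, 4.6, 5.62 and 5.57 in mutants. Libraries 53 and 54 were low and 55 and 56 lay at the edge of the lowest control, and the log2 fold change was -0.71 (SE 0.23, limma adjusted p = 0.253). It was -0.58 without Tgfbr2cko 53 and -0.54 without 54, each under 1.5-fold.

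Position was another feature that the choice did not use. On chromosome 7 lay 3 of the 7 members, *Slco3a1*, *Prss23* and *Prcp*, with 15.0 Mb between the starts of the first pair and 3.35 Mb between those of *Prss23* and *Prcp*. That chromosome held 910 of the tested genes (7.49%) and 11 of the 85 genes lower at an adjusted p under 0.05 (12.9%). The 11 include the 3 members and the 85 include all 7, so this share rests in part on the choice. Within 1 Mb of the starts of the 7 genes lay 110 other measured genes, of which 7 were altered (6.36%, against 5.77% of all genes), with a median log2 fold change of -0.02. Around *Slco3a1* and *Fam161a* 0 of 4 and 0 of 13 neighbours were altered, and 0 had an unadjusted limma p under 0.05.

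*Me3* (ENSMUSG00000030621.17, chr7:89632392-89854359), which encodes a mitochondrial malic enzyme, starts 105.2 kb from *Prss23* and was the only one of these neighbours with an adjusted p under 0.05. It measured 5.04, 5.38, 5.37 and 4.92 log2 CPM in controls and 3.88, 3.84, 3.6 and 2.93 in mutants. No mutant reached a control, and the log2 fold change was -1.61 (SE 0.23, limma adjusted p = 0.00401). Near *Prcp*, *Fam181b* (ENSMUSG00000051515.9, chr7:93079865-93081867) starts 205.4 kb away and was lower, with a log2 fold change of -1.17 (SE 0.33, limma adjusted p = 0.15). *Ddias* (chr7:92857525-92874247), whose product protects cells from apoptosis after DNA damage, starts 0.2 kb from *Prcp*, the closest of all neighbours. *Ddias* had a log2 fold change of 0.23 (SE 0.35, limma adjusted p = 0.995), while *Prcp* beside it was at -1.77.

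Near *Ccdc80*, *Cd200r1* (ENSMUSG00000022667.17, chr16:44765736-44794978), an inhibitory receptor of myeloid cells, was lower, with a log2 fold change of -1.66 (SE 0.48, limma adjusted p = 0.176). It measured 2.08, 2.95, 2.05 and 1.48 log2 CPM in controls and 1.28, 1.36, -0.03 and -0.67 in mutants. The groups did not overlap, but the lowest control, 1.48, was close to the highest mutant, 1.36. The values of -0.03 and -0.67 are low and rest on few reads. Around *Cib3* 3 of 41 neighbours were altered, in both directions. *Ushbp1* was at -0.76 and *B3gnt3* at -0.78, and *Cyp4f18*, a fatty acid hydroxylase, was at 1.2 on the log2 fold scale, or 0.90 and no longer altered without Tgfbr2cko 55.

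**Figure D5:**
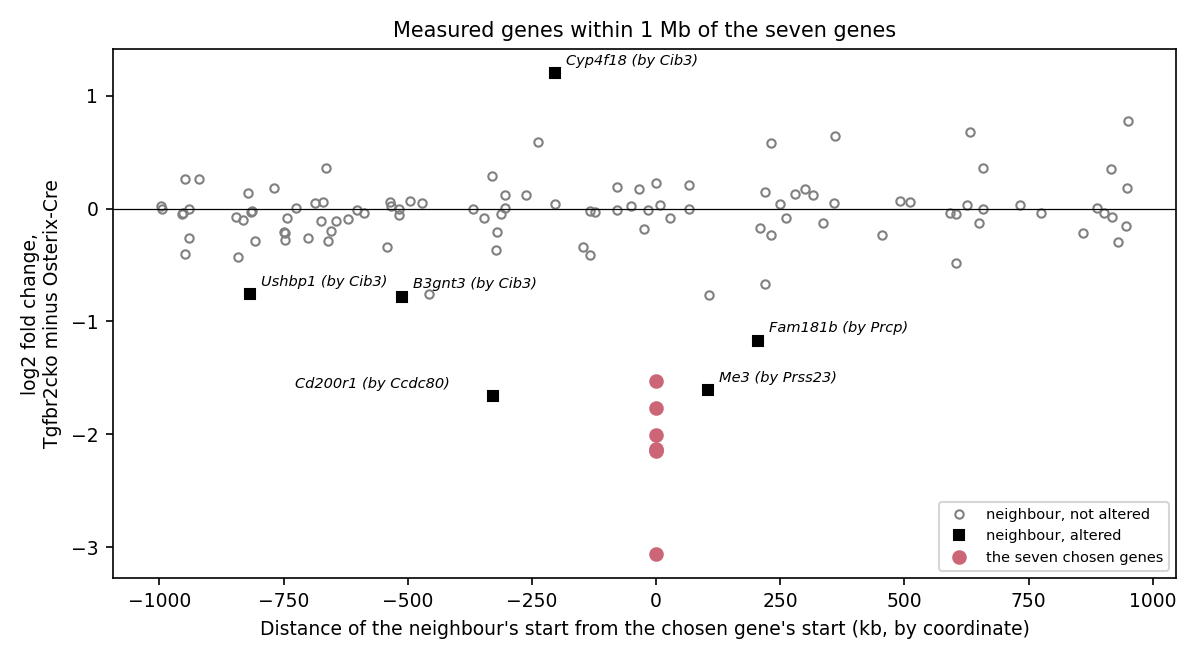
The log2 fold change (y axis, Tgfbr2cko minus Osterix-Cre) of measured genes within 1 Mb of the 7 genes against the distance between the starts in kb (x axis, negative at lower coordinates), with the 7 genes in red at 0 and 1 altered neighbour not drawn. The nearest altered neighbour is *Me3*, 105.2 kb from *Prss23* at -1.61, and most neighbours lie near 0.

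The libraries were checked for the cell types that pulp can hold. Of all genes 5.77% were altered, and the marker lists are short. The odontoblast genes *Dspp* and *Col1a1* were high in all libraries, and the summed level of 6 odontoblast markers was 45900 to 98500 CPM in controls and 28200 to 61000 in mutants. *Col1a1* and *Dspp* made up most of that sum, with control means of 15.8 and 13.29 log2 CPM against 9.71 for *Nes*, the next highest. Of the 6 markers 1 was altered in each direction, *Nes* lower (log2 fold change -0.81, limma adjusted p = 0.235) and *Ibsp* higher (1.24, limma adjusted p = 0.23). Enamel genes set the library labelled Tgfbr2cko 56 apart, since the sum of 7 ameloblast markers reached 193000 CPM there against 3970 to 29500 in the other 7 libraries. Of the 7 markers 1, *Klk4*, was altered, and lower in mutants (log2 fold change -2.71, limma adjusted p = 0.000136). *Amelx*, *Ambn* and *Enam* had log2 fold changes of 1.39, 1.45 and 1.63. Those of *Mmp20*, *Odam* and *Amtn* were -0.38, -0.76 and -0.89, and none of these was altered. The sum of 5 epithelial markers was 319 to 498 CPM in controls and 347, 527, 1310 and 4190 in mutants, so the highest sum was again in the library labelled Tgfbr2cko 56. Of these markers 2 were altered, both higher, and without that library 1 was, *Krt17*. The sum of 4 measured markers of pericytes and smooth muscle was 325 to 422 CPM in controls and 225 to 298 in mutants, without overlap. Of the 4 markers 2 were altered and lower, *Rgs5* (log2 fold change -0.83, limma adjusted p = 0.0212) and *Pdgfrb* (-0.69, limma adjusted p = 0.282). *Acta2* at -0.54 and *Cspg4*, in the other direction at 0.26, were not altered. Without the library labelled Tgfbr2cko 56, the 2 altered were *Rgs5* and *Acta2*. The sum of 6 endothelial markers was 237 to 331 CPM in controls and 187 to 239 in mutants, and 2 were lower, among them *Cldn5* (-1.28, limma adjusted p = 0.00853). Macrophage markers summed to 598 to 875 and 372 to 768 CPM, with 1 of 5 altered and lower. Fibroblast markers summed to 7190 to 8470 and 7560 to 9690 CPM, and red cell markers to 655 to 1500 and 565 to 2540 CPM, with 0 of 5 altered in each list. Without the library labelled Tgfbr2cko 56, 0 of the macrophage markers, 1 fibroblast marker (*Dcn*, higher) and 1 red cell marker (*Hba-a2*, lower) were altered, and 2 ameloblast markers (*Klk4* and *Mmp20*) were lower. Of 5 skeletal muscle markers 0 were measured. The part of these shifts in the lower levels of the 7 genes was not tested. With the mean of *Amelx*, *Ambn* and *Enam* as a covariate, added after seeing the data, the log2 fold change was -3.19 for *Cib3*, -2.12 for *Ccdc80*, -2.11 for *Prss23*, -2.0 for *Ripor3*, -1.94 for *Fam161a*, -1.93 for *Prcp* and -1.61 for *Slco3a1*. The genes were chosen for low values in the mutant libraries, so these values say nothing about the source of the difference.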

How the data were processed

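RNA of P7 molar pulp was sequenced after low-input preamplification, and 8 libraries were available, 4 per genotype. A figure legend of the paper gives a larger N for its RNA-Seq, and the difference is not explained there. Per the labels and the study's methods, the authors trimmed reads with fastp 0.21.0, aligned them with HISAT2 2.1.0 to GRCm38.p5, counted genes with featureCounts of Subread 2.0.1 on GENCODE release 14, dropped low genes with a transcript filter and deposited voom log2 CPM values, made from counts with 0.5 added and scaled to the library total. All 97184 values turned back into whole reads (within 0.001 of a read), and none of the 8 libraries was dropped or imputed here.

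Symbols, coordinates and exon lengths came from GENCODE release 21 (12144 of 12148 identifiers matched). The log2 values of all genes were fitted with limma 3.58.1 (R 4.3.3) with an intensity trend, two-sided, with Benjamini-Hochberg adjustment over 12148 genes, a fit that was tested on simulated data. Altered means p under 0.05 and at least 1.5-fold. The labels do not say that libraries came from separate animals beyond their sample names, so p-values measure the spread between these libraries. Named genes were the members, *Tgfbr2*, altered or closest-named relatives, altered pathway genes, altered neighbours within 1 Mb and the 3 genes most like each member, and markers beside their lists. *Ddias* was named after its value was seen. The members, lists and tests were chosen with earlier results of these data known. Alternatives were library weights, voom weights, no trend, quantile or median scaling, a filter at a mean log2 of 3, averaging libraries of 1 title number, other thresholds and windows, and leaving out each library. An altered neighbouring gene and a marker list are not reported here.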

Additional observations from a re-analysis of the deposited data

How the results depend on the processing

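Over the 84 alternative values of the 7 members (other scalings, averaged title numbers, the enamel covariate and each library left out, without the weighted fits), the median of their log2 fold changes lay between -2.17 and -1.98. The members were chosen as genes with separate groups, so their direction was fixed by the choice and shows no stability. At a threshold of 2-fold, 256 genes were altered. With library weights, which gave the library labelled Tgfbr2cko 56 a weight of 0.349, 258 genes had an adjusted p under 0.05, against 115 without them. Leaving out each library gave 65 to 165 genes with an adjusted p under 0.05, with 65 without Osterix-Cre 51, 70 without Osterix-Cre 52 and 72 without Tgfbr2cko 55. It gave 0 to 2 altered TGFβ response genes, with 0 without Tgfbr2cko 54 and 2 without Osterix-Cre 51 or Tgfbr2cko 56, and 2 with the enamel covariate. Altered neighbours numbered 4 within 500 kb and 11 within 2000 kb, since fewer or more genes are counted, and 6 to 12 when a library was left out, with 12 without Tgfbr2cko 53. Except where stated, the cause was not tested. No paired analysis was possible because the 2 genotypes share only 1 title number, and nothing says what it marks. Averaging libraries of the same title number gave member log2 fold changes with a median of -2.09. In mutants *Cib3* had 20 to 38 reads per library, which sets its counting error.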
